A study of Rattus norvegicus with 18 samples.

Results

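The sodium and potassium pump (Na/K-ATPase) is the membrane protein that bufalin and periplocin are known to block, and 7 genes of its subunits and small regulators were followed here across control and treated rat H9c2 cells. The genes were chosen by name, and all 7 were found among the 17455 genes of each expression table: the catalytic subunit Atp1a4, the beta subunits Atp1b1, Atp1b2 and Atp1b3, and the FXYD proteins Fxyd2, Fxyd5 and Fxyd7. In the lists of m6A peaks, 0 of 9866 regions in the bufalin list and 1 of 9170 in the periplocin list bore the name of a member.

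The pump moves sodium out of the cell and potassium in at the cost of ATP. Its alpha subunit carries the ATP and steroid binding sites, the beta subunit is a glycoprotein needed for folding and delivery to the membrane, and FXYD proteins are small membrane proteins that tune the affinity for ions. Blocking the pump in heart muscle raises sodium and, through the sodium-calcium exchanger, calcium in the cell, which strengthens the beat and at higher exposure is toxic. Rat tissues are known to be less sensitive to these steroids than human ones.

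The cells were wild-type rat myocardial cells labelled as myoblasts, grown with bufalin, with periplocin or as controls. Bufalin is a steroid of toad venom without a sugar, and periplocin is a plant steroid with sugars attached. Each condition had 3 libraries of RNA pulled down with an antibody to N6-methyladenosine (m6A), the commonest methylation inside mRNA, and 3 input libraries, 18 in all. The labels give neither dose nor time, so the exposures behind the values of bufalin and periplocin may differ. They do not name separate cultures either, so p-values cover only the spread between these libraries, which may be technical. The files give 1 value per gene and comparison and none per library, so the level of each library was not analysed here. Group means below were computed from the mean normalized count and fold change of each table, which each hold a compound and the control. Of 6 myoblast and muscle markers 5 reached a control mean of 10 normalized counts and Myf5 was listed at 0. Of 6 cardiac markers 4 did, Nppa had 3.33 and Actc1 was listed at 0.

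The control libraries gave the same means in both tables apart from a scale factor of 1.03 between them, and the ratio lay within 1% of it in 10608 of 10608 genes whose mean was 10 or more. Values of the members in periplocin-treated cells are given on the scale of the bufalin table. Counts were not divided by transcript length, so levels are compared between conditions of 1 gene and not between genes.

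Promoter sequence was at hand for 4 of the 7 genes and is shown because these genes include both abundant and hardly detected RNAs. Each line gives the 250 bases before the annotated start in the RefSeq table for assembly GRCr8, with capitals at the GC box GGGCGG, the TATA box TATAAA and the CCAAT box CCAAT, each on either strand and with no overlap between motifs; of the 2 starts listed for Fxyd5 the first is printed.
Atp1b3, GRCr8 chr8:105821152-105821401, minus strand: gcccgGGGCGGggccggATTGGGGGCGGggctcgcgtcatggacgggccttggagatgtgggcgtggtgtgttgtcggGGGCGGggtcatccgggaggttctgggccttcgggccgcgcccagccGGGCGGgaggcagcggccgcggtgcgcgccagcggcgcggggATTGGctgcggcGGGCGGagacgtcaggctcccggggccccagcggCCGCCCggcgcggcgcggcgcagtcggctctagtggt
Atp1b2, GRCr8 chr10:54823709-54823958, minus strand: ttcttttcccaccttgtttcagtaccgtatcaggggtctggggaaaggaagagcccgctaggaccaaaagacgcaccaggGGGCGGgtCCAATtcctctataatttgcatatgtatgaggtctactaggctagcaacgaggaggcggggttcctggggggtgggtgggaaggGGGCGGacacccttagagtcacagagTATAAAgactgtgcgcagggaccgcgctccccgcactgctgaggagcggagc
Fxyd5, GRCr8 chr1:95404723-95404972, minus strand: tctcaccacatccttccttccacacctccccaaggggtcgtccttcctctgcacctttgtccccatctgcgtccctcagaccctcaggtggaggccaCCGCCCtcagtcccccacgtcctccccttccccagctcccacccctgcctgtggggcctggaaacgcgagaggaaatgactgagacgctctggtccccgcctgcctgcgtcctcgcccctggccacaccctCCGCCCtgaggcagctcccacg
Atp1a4, GRCr8 chr13:87252055-87252304, minus strand: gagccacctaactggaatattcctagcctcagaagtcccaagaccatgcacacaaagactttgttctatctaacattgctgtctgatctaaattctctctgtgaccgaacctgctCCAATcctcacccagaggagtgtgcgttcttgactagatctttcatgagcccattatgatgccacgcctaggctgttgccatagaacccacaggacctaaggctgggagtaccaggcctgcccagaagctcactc

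The window of Atp1b3 held 6 GC boxes, 2 CCAAT boxes and 38 CG pairs, more CG pairs than 98.3% of 33469 such windows. That of Atp1b2 held 2 GC boxes, 1 CCAAT box and 1 TATA box, and the printed one of Fxyd5 2 GC boxes and neither of the others. The window of the other start listed for Fxyd5 held 0 of each motif and 10 CG pairs, against 12 in the printed one. The window of Atp1a4 held 0 GC boxes, 1 CCAAT box and 3 CG pairs, and 28.6% of windows held fewer CG pairs. Of all windows 30.5% held a GC box, 34.0% a CCAAT box and 12.9% a TATA box. Where the gene's mean reached 10 normalized counts, 59.7% of windows had a GC box, and where it did not, 30.6%. A match describes these letters only.

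RNA of the beta subunits Atp1b1 and Atp1b3 did not pass the test with either compound, and their intervals were narrow. Atp1b2 did not pass with periplocin and had no adjusted p with bufalin, so a call was not tested there. Atp1b1, the beta subunit found in most tissues, averaged 7864 normalized counts in bufalin-treated cells, 8243 in periplocin-treated cells and 7934 in control cells. With bufalin it stood at 0.991-fold of control (95% Wald interval 0.914 to 1.08) and with periplocin at 1.04-fold (0.954 to 1.13). The 3 means thus lay within the error of each comparison. The authors' deposited table gave it adjusted p of 0.969 with bufalin and 0.991 with periplocin, by the Wald test of DESeq2.

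Atp1b3, another widely expressed beta subunit, averaged 8188 normalized counts in bufalin-treated cells, 7861 in periplocin-treated cells and 8009 in control cells. It stood at 1.02-fold of control with bufalin (interval 0.921 to 1.14) and at 0.982-fold with periplocin (0.909 to 1.06). The adjusted p was 0.927 for bufalin and 1.0 for periplocin, as the authors' deposited table has it (DESeq2). The intervals of both genes exclude changes of 1.2-fold or more with either compound. The RefSeq table lists 1 pseudogene of Atp1b3, and whether its reads were counted apart was not tested.

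Atp1b2, the beta subunit known from glia, where it was first described as an adhesion molecule, was sparse. It averaged 48.2 normalized counts in bufalin-treated cells, 43.2 in periplocin-treated cells and 34.8 in control cells. The fold against control was 1.38 with bufalin (interval 0.764 to 2.51) and 1.24 with periplocin (0.633 to 2.43). From the authors' deposited table, the unadjusted p was 0.284 for bufalin and 0.530 for periplocin (DESeq2).

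**Figure D1:**
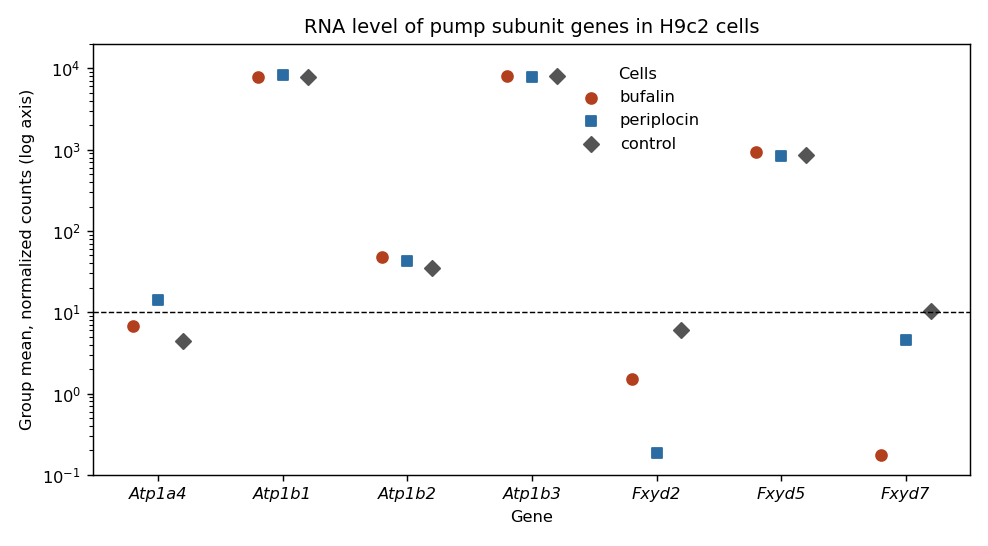
Group means of the 7 genes in normalized counts on a log axis, with bufalin-treated, periplocin-treated and control cells in this order for each gene and a dashed line at 10. Each point is a mean over 3 libraries fitted from the deposited tables, and no spread between libraries is known. Atp1b1, Atp1b3 and Fxyd5 have nearly level triplets, while Fxyd2 with periplocin and Fxyd7 with bufalin have fitted means of 0.185 and 0.177, which stand for groups near 0.

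Fxyd5, also called dysadherin, is a FXYD protein known to bind the pump and to weaken cell adhesion. It averaged 925 normalized counts in bufalin-treated cells, 828 in periplocin-treated cells and 862 in control cells. It stood at 1.07-fold of control with bufalin (interval 0.917 to 1.25) and at 0.961-fold with periplocin (0.842 to 1.10). The authors' deposited table listed an unadjusted p of 0.379 for bufalin and 0.559 for periplocin (DESeq2).

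The remaining 3 genes had a mean under 10 in both tables, and their counts are best read as sums over the 3 libraries of a group. Fxyd7, a FXYD protein known mainly from the brain, had 13.8 normalized counts in the 3 periplocin-treated libraries together and 31.5 in the control ones. In the bufalin-treated ones the sum was near 0, less than a single read. It was computed as 0.0611, a difference of near-equal values, so its digits carry no weight. The control mean stood 3.50-fold above a floor of 3 counts per library, a ratio that carries no error. Fxyd7 stood at 0.0171-fold of control with bufalin (interval 0.00156 to 0.187), a fold set by a group near 0. Its unadjusted p with bufalin was 0.000851 in the authors' deposited table (DESeq2), which gave no adjusted p for it. Adjusted over all 12876 genes with a p the value was 0.25, so the difference did not pass. With periplocin the fold against control was 0.440, with an interval of 0.0592 to 3.26.

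Fxyd2, the gamma subunit known from kidney tubules, showed low counts in the control group as well as in both treated groups. It had 4.53 normalized counts in bufalin-treated libraries together and 18.2 in control ones. In periplocin-treated ones the sum was near 0, computed as 0.0858 in the same way and again less than a single read. The control mean stood 2.02-fold above the same floor, again without an error. Fxyd2 stood at 0.0314-fold of control with periplocin (interval 0.00199 to 0.495), also set by a group near 0. The unadjusted p was 0.0139 and the adjusted p 0.491 in the authors' deposited table for periplocin (DESeq2). With bufalin the fold was 0.249 with an interval of 0.0242 to 2.57.

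Atp1a4, the catalytic subunit known from sperm, had 20.2 normalized counts in bufalin-treated libraries together, 41.9 in periplocin-treated ones and 13.4 in control ones. The fold was 1.5 with bufalin (interval 0.228 to 9.93) and 3.15 with periplocin (0.641 to 15.5). For bufalin and periplocin the unadjusted p was 0.671 and 0.158, from the authors' deposited table (DESeq2). All 3 groups thus rested on few reads, and their order was not shown to differ from noise.

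Most markers of the tissues these 3 genes are known from were sparse as well, but the neural marker Syt1 was not. Sums are given on each table's own scale, and single control means are those of the bufalin table. Of 6 kidney tubule markers 1 reached a control mean of 10, Aqp2 at 11.2, and Umod was listed at 0. Their summed level was 24.1 normalized counts with bufalin against 18.3 in control cells, and 36.1 with periplocin against 17.9. Of 6 neural and glial markers 2 reached it in the bufalin table, Syt1 at 222 and Mbp at 10.1, and Snap25 and Rbfox3 were listed at 0. The sums, mostly made up of Syt1, were 228 against 232 with bufalin and 217 against 225 with periplocin. Of 6 germ cell markers 1 reached it, Sycp3 at 11.2, and Ddx4 and Dazl were listed at 0. The germ cell sums were 7.30 against 12.3 with bufalin and 11.1 against 11.9 with periplocin. Any tie between these markers and the low counts was not tested. All libraries were made from H9c2 cells, so the sums describe bulk RNA of that cell line and not of a mixed tissue.

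Counted together, 0 of the 2 members with an adjusted p were called with bufalin, where 0.301% of 3321 genes were. With periplocin 0 of 7 were called, where 0.538% of 12445 genes were. At an unadjusted p of 0.05, 1 of 7 members passed with bufalin, where 5% of 12876 genes did, and 1 of 7 with periplocin, where 6.25% of 12906 did. These were Fxyd7 and Fxyd2, both lower in treated cells, as were 1.96% of genes with bufalin and 2.15% with periplocin at that p. With the adjustment made over every gene with a p, 0 of 7 members passed in either comparison, where 0.0932% of genes did with bufalin and 0.519% with periplocin. The median log2 change over the 7 members was 0.03 with bufalin and -0.03 with periplocin, beside medians of 0.00 over all genes with a fold change in either table. Both comparisons share the control libraries. Of the 7 members 4 had a mean of at least 10 in both tables, and the largest change among these 4 was that of Atp1b2.

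**Figure D2:**
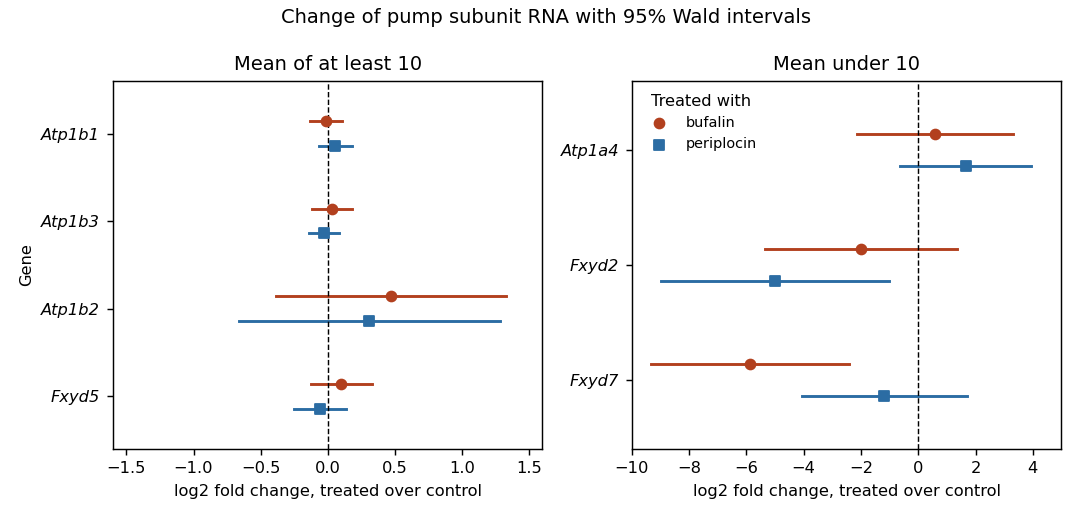
Log2 fold change of each member, treated over control, with its 95% Wald interval from the authors' standard errors, for bufalin (circles, above) and periplocin (squares, below). Members with a mean of at least 10 are on the left and the others on the right, with a wider axis. The intervals of Fxyd7 with bufalin and of Fxyd2 with periplocin leave out 0, and all others hold it.

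Precision followed the count. In the authors' deposited table the SE of the log2 change with bufalin was 0.06 for Atp1b1, 0.08 for Atp1b3, 0.12 for Fxyd5 and 0.44 for Atp1b2. For the genes under 10 it ran from 1.39 for Atp1a4 to 1.76 for Fxyd7 in the authors' deposited table for bufalin. Genes with a mean within 0.8 to 1.2 times that of Atp1b1 had a median SE of 0.06 there, and those like Fxyd7 one of 1.72. For Atp1b1 with periplocin 86.3% of 453 such genes had a smaller SE.

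**Figure D3:**
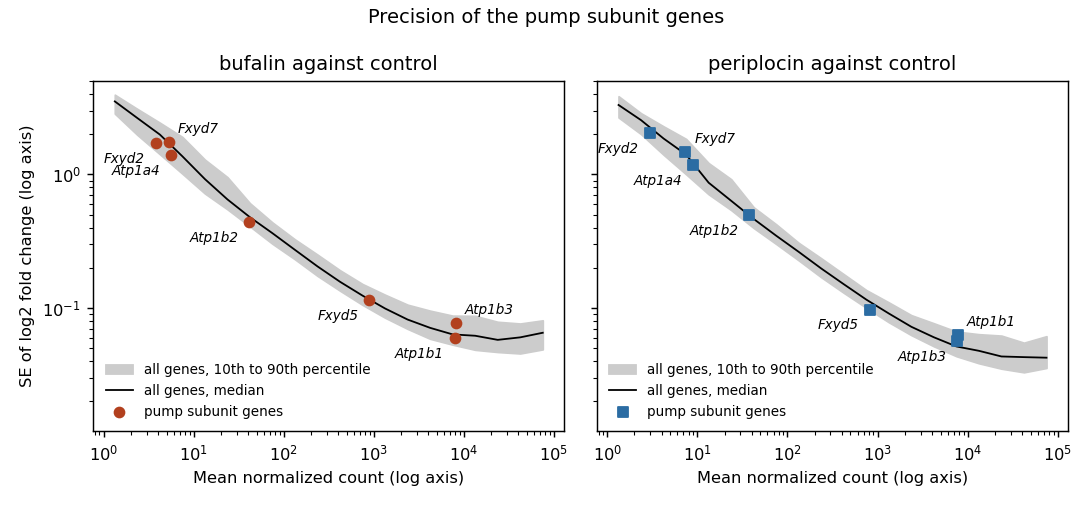
Standard error of the log2 fold change against the mean normalized count, both on log axes, for bufalin (left) and periplocin (right). The line and band give the median and the 10th to 90th percentile over all genes in classes of level, and points are the 7 members. All points lie in or at the edge of the band.

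Bufalin-treated and periplocin-treated cells were compared through the difference of the 2 fold changes, with a standard error that ignores the shared controls and is thus an upper limit. For Atp1b1 the bufalin over periplocin ratio was 0.954 (interval 0.848 to 1.07), for Atp1b3 1.04 (0.914 to 1.19), for Fxyd5 1.12 (0.909 to 1.37) and for Atp1b2 1.12 (0.455 to 2.74). Of these 4 members 0 passed the Wald test at an adjusted p of 0.05, each at 1.0, where 0.0755% of 10602 genes did. The compounds were thus not shown to differ in these genes, nor to act alike beyond those intervals. Over all 12547 genes with a p in both tables, where 1.4% passed an unadjusted p of 0.05, Fxyd7 had 0.0414 in this Wald test and an adjusted p of 1.0. For Fxyd2 and Atp1a4 the unadjusted p of the same test was 0.261 and 0.557.

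In the m6A peak lists the members were nearly bare. The only region was on Atp1b3 in the periplocin list, at rn6 chromosome 8, 104192913 to 104194916, minus strand. It joined 2 blocks of 60 and 39 bases across a gap of 1905 bases, at 104192913 to 104192972 and 104194878 to 104194916. Its length of 99 bases was short, with 7.36% of the list at or under it, and 44.4% of the list's peaks joined 2 or more blocks. The position relative to exons was not analysed here.

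The authors' enrichment of this region, read as IP over input, was 1.34-fold, and 9.83% of peaks in the list were lower. The median was 1.81 over the 923 peaks on genes with a mean like that of Atp1b3. Enrichment itself had a log10 FDR of -9.64, and 46.4% of peaks had a smaller FDR. The authors' deposited table gave its change with periplocin as -0.18 (log2), read as treated over control, with a p of 0.456 and an FDR of 1. A larger change in either direction was seen in 35.0% of peaks. The FDR of the change passed 0.05 in 0.0436% of the periplocin list and in 0.0304% of the bufalin list, and in 0 of the members' regions. No region of the bufalin list overlapped the Atp1b3 region on the same strand.

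Most genes with about as much RNA as Atp1b1 or Atp1b3 carried a peak. Of 470 genes with a mean within 0.8 to 1.2 times that of Atp1b1, 74.7% had a peak in the bufalin list, and of 453 such genes 72.6% had one in the periplocin list, while Atp1b1 had 0 in both. For Atp1b3 the shares in the bufalin and periplocin lists were 74.0% and 72.8%, and for Fxyd5, which had 0 peaks, 51.5% and 46.8%. At the level of Atp1b2 only 1.79% and 2.07% of genes held a peak, and at that of Fxyd7 0.690% and 1.75%.

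**Figure D4:**
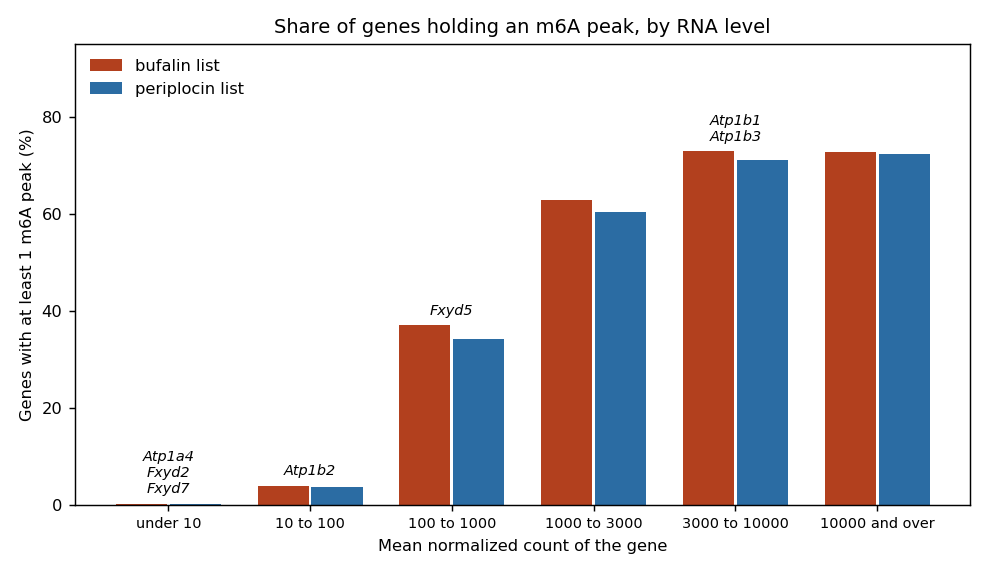
Percentage of genes with at least 1 m6A peak in the bufalin list and the periplocin list, in classes of the gene's mean normalized count, with members named above their class. The share reaches 72.8% (bufalin list) and 71.1% (periplocin list) in the class of Atp1b1 and Atp1b3, of which only Atp1b3 has a peak, in the periplocin list.

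None of the other genes listed around the pump was called by the authors' test. A call needs an adjusted p, and with bufalin no gene with a mean under 2259 had one. Of 8 further pump subunit and FXYD genes, 6 had a p with bufalin and 4 with periplocin, and 0 passed an unadjusted p of 0.05. An adjusted p was given for 1 of them with bufalin and 4 with periplocin, and 0 were called. Of 15 partners and regulators of the pump 11 had a p in each table. An adjusted p was given for 6 of them with bufalin and 11 with periplocin, and 0 were called. Cav1, the coat protein of caveolae where pumps gather, came nearest, with 4532 normalized counts in bufalin-treated cells against 5391 in control cells, and 4591 with periplocin against 5222 on that table's own scale. The authors' deposited table put its log2 change at -0.25 ± 0.08 (SE) for bufalin and -0.19 ± 0.05 for periplocin, at adjusted p of 0.148 and 0.0873 (DESeq2). Sgk1, a kinase that raises sodium transport, stood at 1.46-fold with periplocin (interval 1.08 to 1.97) and at 1.03-fold with bufalin (0.837 to 1.26). Its adjusted p with periplocin was 0.491 in the authors' deposited table (DESeq2).

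Of 11 transporters tied to the sodium and calcium gradients all 11 had a p in both tables. An adjusted p was given for 6 of them with bufalin and 10 with periplocin, and 0 were called. Slc8a1, the sodium-calcium exchanger of heart muscle, had a log2 change of -0.09 ± 0.08 (SE) for bufalin and 0.06 ± 0.08 for periplocin, from the authors' deposited table. Atp2a2, the calcium pump of the sarcoplasmic reticulum, stood at 0.921-fold with periplocin (interval 0.868 to 0.976) and 1.06-fold with bufalin (0.978 to 1.14). Its unadjusted p with periplocin was 0.00536 and its adjusted p 0.310 in the authors' deposited table (DESeq2). Over the partners the median log2 change was -0.01 with bufalin and -0.03 with periplocin, and over the transporters 0.01 and -0.01.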

How the data were processed

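RNA of H9c2 cells was measured by m6A immunoprecipitation sequencing in 18 samples, 3 IP and 3 input libraries for each of 3 conditions, grouped by the sample titles. The submitters' processing notes name build rn6 and the tools HISAT2, StringTie and DESeq. Not given in the sources used here are tool versions, the peak caller and the kind of library, input or IP, behind the expression tables. The deposited signal of a gene is the mean over libraries of counts divided by size factors, as the authors' DESeq2 column name says. The log2 fold changes, their standard errors, the test score and the p-values are the authors' DESeq2 output, per the file headers. The fold enrichment of a peak, a ratio, and the log10 values of p and FDR were deposited by the authors.

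The direction of the RNA values was read as treated over control, since only then did the control means of both tables match. The test score of the authors' periplocin table had the opposite sign to the fold change in 12913 of 12913 genes, so signs were taken from fold changes. Each group mean was computed from the table mean and the fold change with 3 libraries a group. Where a group was near 0, its sum was computed with the control mean from the other table. With no counts per library, the authors' own tests were used. Calls are the deposited adjusted p under 0.05, and the compounds were compared by an approximate Wald test with Benjamini-Hochberg adjustment over genes whose mean was 10 or more. That test was run on simulated counts with a known spread only, so its error rate on these data was not tested. Intervals are 95% Wald intervals. Peak starts were counted from 1, and overlap needed 1 base on the same strand.

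Members and lists were chosen with earlier results of these data known. Named genes are the members and, per list, genes with an unadjusted p under 0.05 or the highest means. Slc8a1 falls outside this rule and is named as the sodium-calcium exchanger. Further genes taken by the rule stay unnamed, are not reported singly and are part of all counts. RefSeq tables of GRCr8 gave promoters and gene names, and matched 7 of 7 members. Per-library depth was not analysed here. The software was Python 3.11.15 with matplotlib 3.10.9, scipy 1.17.1, pandas 2.3.3 and numpy 2.4.6.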

Additional observations from a re-analysis of the deposited data

How the results depend on the processing

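Under the alternatives run, the counts of members called stayed at 0 for RNA with each compound, for the compounds against each other and for the change of the Atp1b3 region, and 5 members reached a control mean of 10 in either table. For single members, another adjustment, threshold or standard error leaves the fold change as it is and can only move a call, and no call was gained. Centring on the median gene turned no fold change round. The alternatives were adjustment over all genes with a p or over genes whose mean was 10 or more, a threshold of 0.10 for RNA and 0.01 for peaks, centring on the median gene, another standard error or gene filter between the compounds, control means from the periplocin table, and an overlap of 50% of the shorter peak. With the standard error rebuilt without the shared controls, 42 of 10602 genes differed between the compounds, against 8 with the upper limit, and 0 of the 4 members tested in either. Of the genes around the pump, Cav1 passes with periplocin at a threshold of 0.10, with an adjusted p of 0.0873. With peaks of at least 2-fold enrichment only, no member has a region left, so no value was had. No paired analysis was possible because the deposited tables hold 1 value per comparison, and for the same reason no library could be left out. Counts limit Atp1a4, Fxyd2 and Fxyd7, whose intervals span several-fold changes.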

Other observations

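Related ion pumps gave a few values outside the comparisons above. Of 5 related P-type pump genes 3 had a p in each table. With bufalin 0 of them had the adjusted p that a call needs, so a call was not tested there. With periplocin 3 had one, and 0 were called. Atp2a1, the calcium pump of fast skeletal muscle, stood at 1.44-fold of control with bufalin (95% Wald interval 0.880 to 2.37) and at 1.46-fold with periplocin (0.927 to 2.31), at unadjusted p of 0.146 and 0.102 in the authors' deposited table (DESeq2).

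Several genes around the pump carried m6A peaks. Their RNA level was not matched to that of the members, and no test was made between them. In the bufalin list 5 of 15 partners and regulators held 16 peaks and 6 of 11 gradient transporters held 18. In the periplocin list 5 of 15 held 15 peaks and 7 of 11 held 16. The FDR of the change passed 0.05 in 0 of these. Of the 8 further pump subunit and FXYD genes and the 5 related pumps, 0 had a peak in either list.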
